A study of Mus musculus with 33 samples.

Results

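Transcripts of 10 complement genes were followed in sorted mouse macrophages that had or had not been targeted for deletion of the transcription factor Zeb2. The genes were taken by symbol from the count tables, which hold 24421 genes in each of 33 samples, and all 10 were found. They are the C1q chain genes C1qa, C1qb and C1qc, the component genes C2, C3 and C6, the alternative pathway genes Cfb (factor B) and Cfp (properdin), and the anaphylatoxin receptor genes C3ar1 and C5ar1. Kupffer cells (KCs), the resident macrophages of the liver, came from Zeb2 fl/fl mice without Cre (CRE- KC, n = 6) and from mice with the same alleles that also carry Clec4f-cre, whose KCs were sorted into Tim4+ (n = 6) and Tim4- (n = 6) fractions. Alveolar macrophages (AMs), the resident macrophages of the airspace of the lung, came from Zeb2 fl/fl mice without Cre (CRE- AM, n = 5) and from mice that also carry Itgax-cre, whose AMs were sorted into CD11b- (n = 5) and CD11b+ (n = 5) fractions. All groups therefore carry the floxed Zeb2 alleles, and the mice were 6 to 8 weeks old according to the methods.

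The sorted fractions are imperfect models of a cell without ZEB2. Some macrophages of Cre mice keep a copy of Zeb2, so each CRE+ fraction can mix cells with and without it. Clec4f-cre was also active in a few B cells, and Itgax-cre acts in other cells that express CD11c. The Zeb2 level was 282 ± 37.6 CPM (counts scaled to the size of the library) in CRE- KCs, 174 ± 25.8 in Tim4+ KCs and 169 ± 15.4 in Tim4- KCs (SD, n = 6), and 195 ± 17.1, 105 ± 11.8 and 62.5 ± 7.79 in CRE-, CD11b- and CD11b+ AMs (SD, n = 5). Zeb2 was lower in every CRE+ library than in every CRE- library of the same tissue, but reads from exons outside the floxed part are still counted, so these values do not measure how many cells deleted it. The libraries held 9837240 to 24332306 counted reads, with the shallowest in Tim4- KC replicate 1. Replicates 5 and 6 of each KC group carried counts of the Y-linked gene Ddx3y and the other libraries 3 counts of it at most. Each comparison among KC groups was also computed with that gene as a covariate and in replicates 1 to 4 alone. The comparisons of KCs with AMs were not computed in these ways. No label ties a library to a separate mouse, so the p-values measure the spread between libraries. In bulk samples, fewer cells of a type and less RNA per cell cannot be told apart.

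Complement is a cascade of plasma proteins that marks microbes and dying cells for removal. C1q recognises the target in the classical pathway and is, unlike most components, made mainly by macrophages, while hepatocytes make most circulating C3, C6 and factor B. C2 gives the protease of the classical and lectin C3 convertase, and factor B gives that of the alternative one, which properdin stabilises. C3 is the protein that both convertases split, C6 joins the membrane attack complex, and C3AR1 and C5AR1 bind the small fragments C3a and C5a that are released on the way.

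The 3 C1q chain genes lie side by side on the minus strand of chromosome 4 in GRCm38, with C1qa at 136895917-136898803, C1qc at 136889804-136893065 and C1qb at 136880129-136886187, and 2851 and 3616 bases between neighbours. Their promoter windows are shown because these genes changed together in the AM groups below, and those of C6 and C3ar1 because these genes gave some of the largest differences between the groups in KCs and in AMs. Each window is RefSeq sequence of GRCm38.p6 from 250 bases before to 50 bases after the annotated start, read 5′ to 3′ on the strand of the gene. The windows are chr4:136886151-136886450 (minus strand) for C1qb, chr4:136892865-136893164 (minus strand) for C1qc, chr6:122856108-122856407 (minus strand) for C3ar1 and chr15:4726960-4727259 (plus strand) for C6. Capitals mark matches, on either strand, to the E-box sequence CACCTG that ZEB proteins bind and to GAGGAA, a core bound by the macrophage factor PU.1.
C1qb promoter: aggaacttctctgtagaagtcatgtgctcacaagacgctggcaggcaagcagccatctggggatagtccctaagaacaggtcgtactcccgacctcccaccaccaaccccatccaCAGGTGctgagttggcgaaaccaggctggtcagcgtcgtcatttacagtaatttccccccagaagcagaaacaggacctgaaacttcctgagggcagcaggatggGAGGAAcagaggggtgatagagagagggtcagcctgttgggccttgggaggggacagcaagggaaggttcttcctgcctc
C1qc promoter: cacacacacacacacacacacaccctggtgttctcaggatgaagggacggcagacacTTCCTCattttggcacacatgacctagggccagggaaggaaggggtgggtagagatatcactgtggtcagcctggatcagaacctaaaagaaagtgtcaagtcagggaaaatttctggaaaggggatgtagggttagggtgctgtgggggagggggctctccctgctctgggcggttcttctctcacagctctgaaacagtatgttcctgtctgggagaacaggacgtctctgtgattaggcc
C3ar1 promoter: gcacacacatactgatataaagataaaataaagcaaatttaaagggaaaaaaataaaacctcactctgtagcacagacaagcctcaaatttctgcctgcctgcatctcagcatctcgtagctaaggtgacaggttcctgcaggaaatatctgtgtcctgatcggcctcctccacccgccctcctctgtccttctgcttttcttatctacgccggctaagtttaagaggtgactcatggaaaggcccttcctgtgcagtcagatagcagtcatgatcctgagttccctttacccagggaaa
C6 promoter: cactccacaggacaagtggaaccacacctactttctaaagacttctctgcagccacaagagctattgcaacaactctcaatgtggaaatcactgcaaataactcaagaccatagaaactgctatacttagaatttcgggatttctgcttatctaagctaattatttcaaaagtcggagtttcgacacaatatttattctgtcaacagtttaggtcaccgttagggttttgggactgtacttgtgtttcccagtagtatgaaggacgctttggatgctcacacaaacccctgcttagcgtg
A window was at hand for 7 of the 10 genes, all but C1qa, C2 and Cfb. CACCTG occurred in 1 of the 7, C1qb, as CAGGTG with its first base at -135, and it occurs in 20.2% of all 32851 promoter windows. GAGGAA occurred in C1qb at -30, in C1qc at -193 on the reverse strand and in Cfp on the reverse strand at 7 and 23, and it occurs in 28.3% of all windows. The motifs do not overlap, and a match describes letters in the window only.

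**Figure D1:**
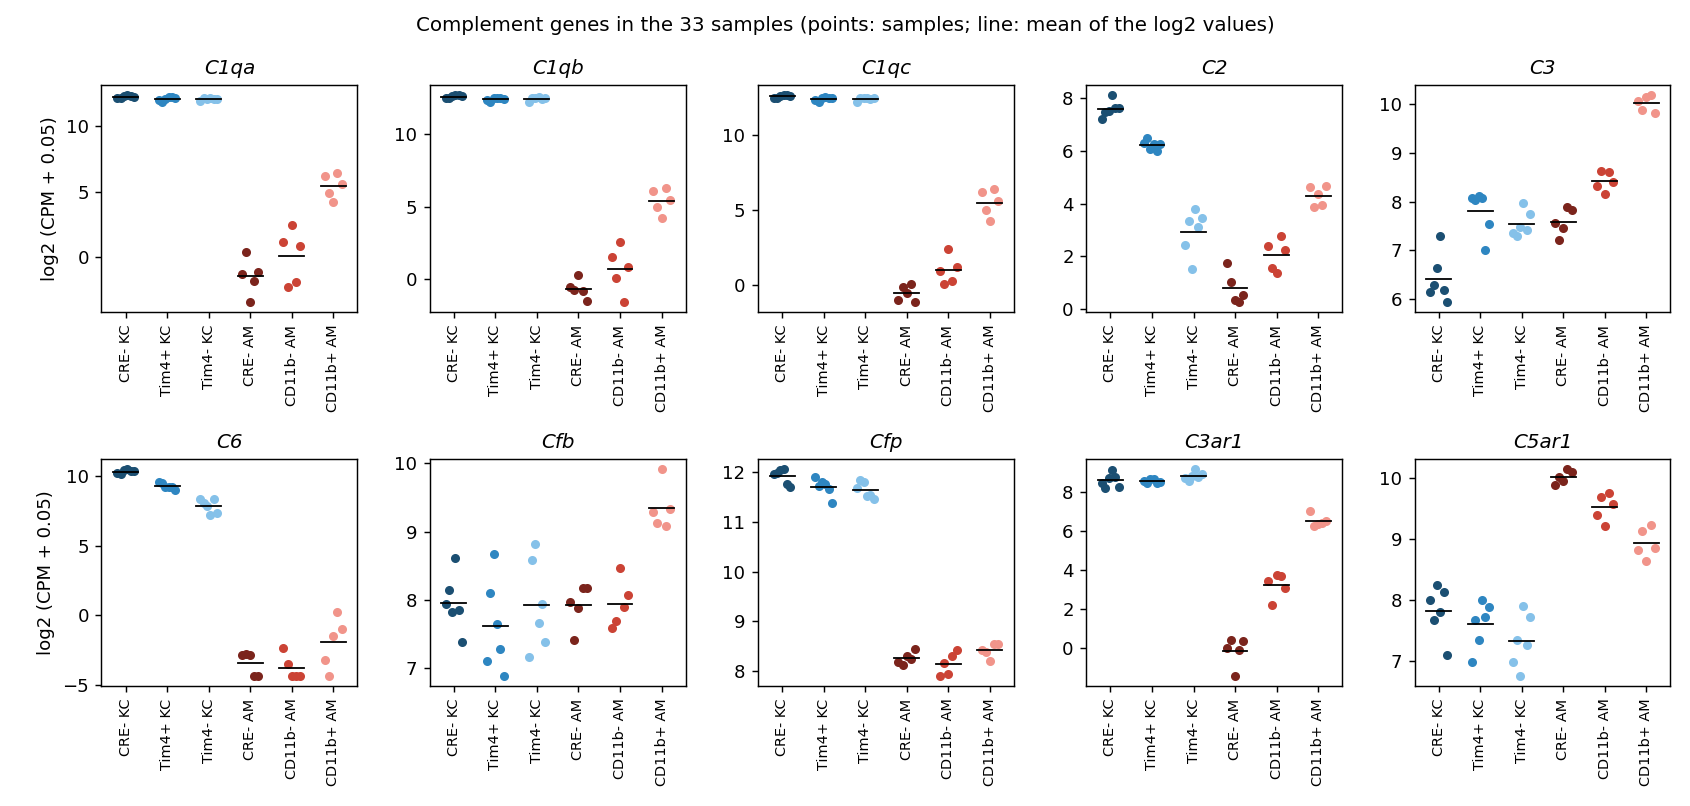
Level of each of the 10 genes in the 33 samples, as log2 of CPM plus 0.05 on the vertical axis, with 1 point per sample, a line at the mean of the log2 values and the 6 groups on the horizontal axis. C1qa, C1qb and C1qc stand at 3705 CPM or more in every KC sample, and C2 and C6 step down from CRE- to Tim4+ to Tim4- KCs.

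In CRE- cells, 9 of the 10 genes differed between KCs and AMs. CRE- KCs had more C1qa, C1qb, C1qc, C2, C6, Cfp and C3ar1 than CRE- AMs, CRE- AMs had more C3 and C5ar1, and Cfb did not pass the test. A gene was called changed when its adjusted p (edgeR's quasi-likelihood test, Benjamini-Hochberg over all genes tested) was under 0.05 and its absolute log2 fold change was above 1. Of the 10 genes 7 were higher and 2 lower in KCs, where 33.3% of the 12145 genes tested were called, 20.9% higher and 12.4% lower. The median log2 difference was 7.79 over the 10 genes and 0.03 over all genes tested.

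The C1q chain genes were among the most abundant transcripts of KCs. Per length, in RPKM (CPM divided by the exon length in kilobases), CRE- KCs had 4603 for C1qa, 5663 for C1qb and 3171 for C1qc, which placed them at ranks 5, 3 and 12 of all genes. Together the 3 genes took 1.57% to 1.81% of all counts in CRE- KCs. In CRE- AMs the C1qa level was 0.465 ± 0.472 CPM (SD, n = 5), from 1 to 26 counts per library, and C1qb and C1qc had 6 to 25 and 8 to 21 counts. The log2 difference was 13.36 (SE 0.307, adjusted p = 1.02e-13 by edgeR) for C1qa, 13.25 for C1qb and 13.16 for C1qc.

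Properdin and C6 also marked KCs. Cfp was at 3892 ± 406 CPM in CRE- KCs (SD, n = 6) and 306 ± 26.8 CPM in CRE- AMs (SD, n = 5), a 12.9-fold difference (log2 3.69, SE 0.0923, adjusted p = 2.15e-13 by edgeR). Its per-length level of 2242 RPKM was rank 16 in CRE- KCs. C6 was at 1303 ± 129 CPM in CRE- KCs, and 3 CRE- AM libraries had 2 counts each while the other 2 had none. The fitted log2 difference of 14.36 for C6 rests on these few AM counts. C3ar1 was at 402 ± 98.0 CPM in CRE- KCs and 0.926 ± 0.380 CPM in CRE- AMs (log2 8.79, SE 0.272, adjusted p = 1.69e-12 by edgeR).

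C5ar1 had the opposite order to C3ar1. Its level was 1038 ± 76.8 CPM in CRE- AMs, from 942 to 1134 over the 5 libraries, and 234 ± 60.0 CPM in CRE- KCs, from 136 to 303 over 6, so it was 4.35-fold lower in KCs (log2 -2.12, SE 0.160, adjusted p = 2.84e-08 by edgeR). At 404 RPKM it ranked 81 among all genes of CRE- AMs. C3 was 2.12-fold lower in CRE- KCs (log2 -1.09, SE 0.211, adjusted p = 4.15e-04 by edgeR), with groups that overlapped, and without CRE- KC replicate 6 its log2 difference of -0.99 fell short of the fold limit. Cfb differed by 0.09 on the log2 scale, with a 95% interval of -0.27 to 0.46. Hepatocyte markers summed to 175 to 451 CPM in CRE- KCs, with all 8 detected, and to at most 0.403 CPM in CRE- AMs, where Apoa1, Ttr, Ahsg and Serpina1c were at 0. Liver endothelial markers summed to 583 to 1794 CPM in CRE- KCs and 2.79 to 4.30 CPM in CRE- AMs. Their part in the KC levels of these genes was not tested.

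**Figure D2:**
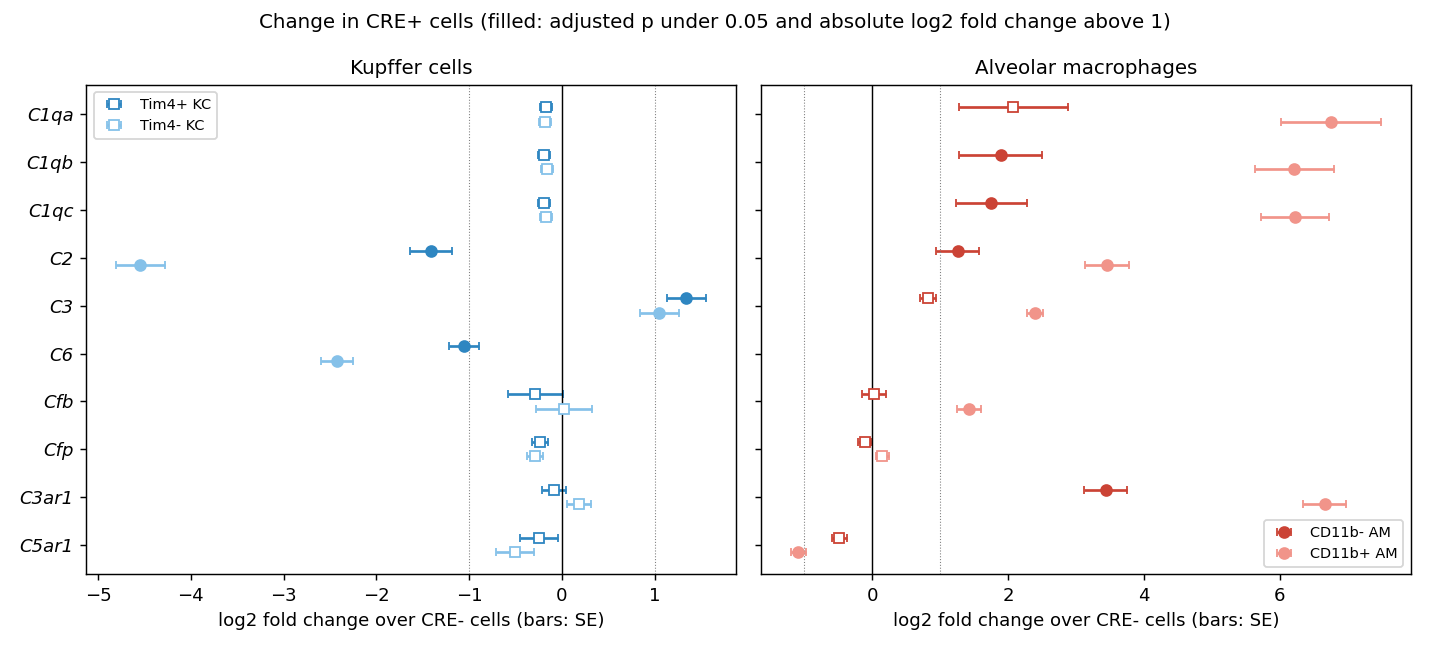
Log2 fold change of the 10 genes in CRE+ over CRE- cells on the horizontal axis, with bars of 1 SE, for Tim4+ and Tim4- KCs at the left and CD11b- and CD11b+ AMs at the right. Filled circles passed both limits and open squares did not. C6 is absent at the right because its AM counts were too low to test. C2 fell by 4.54 in Tim4- KCs and rose by 3.46 in CD11b+ AMs.

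In KCs 3 of the 10 genes changed in each CRE+ fraction. In Tim4+ KCs C3 rose and C2 and C6 fell, and the other 7 did not pass the limits, where 2.31% of the 12500 genes tested were called (1.94% higher, 0.376% lower). In Tim4- KCs C3 rose and C2 and C6 fell as well, and 8.82% of genes were called (3.43% higher, 5.39% lower). Both comparisons use the same CRE- KC libraries. The median log2 fold change of the 10 genes was -0.21 in Tim4+ and -0.18 in Tim4- KCs, against 0.00 and -0.03 over all genes.

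C2, which encodes the protease part of the classical C3 convertase, had the largest change in KCs. Its level in replicates 1 to 6 was 150, 178, 184, 278, 198 and 200 CPM in CRE- KCs. In Tim4+ KCs the values were 78.3, 90.1, 67.3, 77.5, 64.2 and 76.3 CPM, and in Tim4- KCs they were 5.29, 9.99, 2.85, 13.7, 8.52 and 10.8 CPM. No KC group overlapped another. C2 was 2.65-fold lower in Tim4+ than in CRE- KCs (log2 -1.41, SE 0.228, adjusted p = 3.74e-04) and 23.3-fold lower in Tim4- KCs (log2 -4.54, SE 0.264, adjusted p = 1.47e-10, both by edgeR). Tim4- KCs were also 8.79-fold lower than Tim4+ KCs (log2 -3.14, SE 0.251, adjusted p = 2.27e-07 by edgeR), a comparison in which 5.45% of genes were called (0.44% higher, 5.01% lower).

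Cfb, the alternative pathway counterpart of C2, passed the limits in neither CRE+ fraction of KCs. Cfb (chr17:34856374-34862518) lies 85 bases from C2 (chr17:34862604-34898265), on the same strand of GRCm38. Cfb was at 258 ± 76.2 CPM in CRE- KCs, 215 ± 110 CPM in Tim4+ KCs and 265 ± 124 CPM in Tim4- KCs (SD, n = 6), and the groups overlapped throughout. The log2 change was -0.28 (95% interval -0.87 to 0.30) in Tim4+ and 0.02 (-0.56 to 0.61) in Tim4- KCs, and the latter turned negative under several alternatives. The ratio of C2 to Cfb CPM had a median of 0.759 in CRE- KCs, 0.401 in Tim4+ KCs and 0.0358 in Tim4- KCs. The annotation holds a transcript across both genes (Gm20547) that shares 1656 exon bases with C2 and 2246 with Cfb and has no row in the counts, and how the authors' counting treated such reads is not given in the sources used here.

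**Figure D3:**
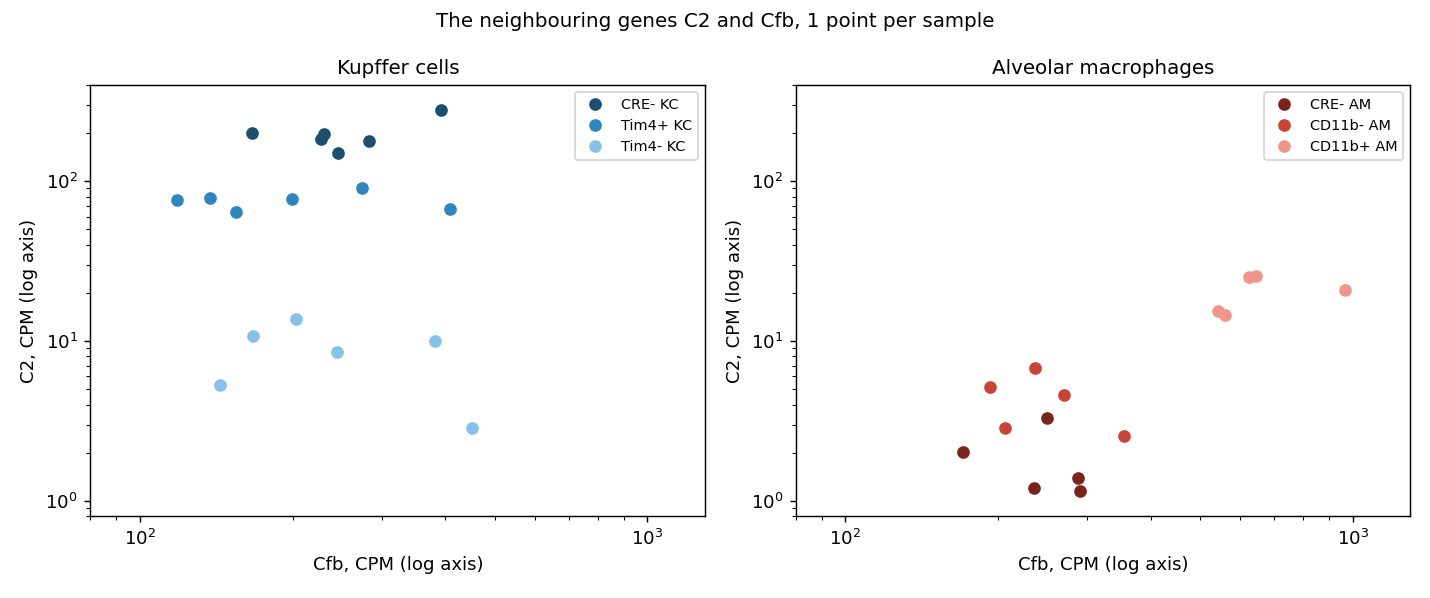
C2 against Cfb in CPM, both on log axes, with 1 point per sample, for the 3 KC groups at the left and the 3 AM groups at the right. The KC groups separate along the C2 axis and overlap along the Cfb axis, and the 5 CD11b+ AM samples lie above the other AM samples on both.

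C6, a component of the membrane attack complex, fell in the same order. It was at 1183, 1124, 1369, 1471, 1306 and 1366 CPM in the CRE- KC replicates, at 780, 738, 590, 606, 591 and 514 CPM in the Tim4+ replicates and at 334, 268, 231, 152, 324 and 163 CPM in the Tim4- replicates. No KC group overlapped another. The fall was 2.08-fold in Tim4+ KCs (log2 -1.06, SE 0.164, adjusted p = 2.52e-04) and 5.37-fold in Tim4- KCs (log2 -2.43, SE 0.171, adjusted p = 2.16e-09, both by edgeR), and Tim4- KCs were 2.59-fold below Tim4+ KCs (log2 -1.37, SE 0.166, adjusted p = 2.92e-05 by edgeR). Without Tim4+ KC replicate 6 the log2 change in Tim4+ KCs was -0.98, short of the fold limit, and in replicates 1 to 4 alone it was -0.95. The paper lists C6 among genes that differ between monocyte-derived and embryonic KCs, and it links Tim4 to the time spent in the tissue. From its single-cell data it also names C6 among core KC genes lost without the transcription factor gene Nr1h3, and likewise without Zeb2. Cell origin and loss of Zeb2 cannot be told apart in the order of the KC groups.

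C3, which both convertases split, rose in both CRE+ fractions. It was at 70.7, 78.1, 100.2, 157, 73.0 and 61.8 CPM in CRE- KC replicates, at 268, 263, 277, 270, 128 and 187 CPM in Tim4+ replicates and at 165, 158, 178, 250, 171 and 213 CPM in Tim4- replicates. CRE- KC replicate 4 was the highest of its group, above Tim4+ replicate 5, so these groups overlapped, while every Tim4- library lay above every CRE- library. The rise was 2.54-fold in Tim4+ KCs (log2 1.34, SE 0.213, adjusted p = 2.94e-04) and 2.08-fold in Tim4- KCs (log2 1.05, SE 0.212, adjusted p = 9.39e-04, both by edgeR). The Tim4- rise was close to the fold limit and fell short of it without CRE- KC replicate 1 (0.99) or 6 (0.96) or Tim4- KC replicate 4 (0.96), and in replicates 1 to 4 alone (0.88). Tim4- and Tim4+ KCs differed by -0.29 (95% interval -0.70 to 0.12).

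The C1q chain genes kept a high level in both CRE+ KC fractions. C1qa was at 4787 ± 288 CPM in CRE- KCs, 4302 ± 378 in Tim4+ and 4280 ± 245 in Tim4- KCs (SD, n = 6). The log2 change in Tim4- KCs was -0.18 for C1qa (95% interval -0.30 to -0.05, adjusted p = 0.0486), -0.16 for C1qb (-0.29 to -0.03, adjusted p = 0.0888) and -0.17 for C1qc (-0.30 to -0.05, adjusted p = 0.0492, all by edgeR), so C1qa and C1qc passed the p limit, as 25.4% of all genes tested did, but none passed the fold limit. In Tim4+ KCs the changes were -0.17, -0.19 and -0.19, and none had an adjusted p under 0.05. C1qa made up 28.0% of the C1q counts in CRE- KCs, 28.3% in Tim4+ KCs and 27.9% in Tim4- KCs, C1qb 36.1%, 35.9% and 36.4%, and C1qc 35.9%, 35.8% and 35.7%. The proportions of the 3 chains thus moved by less than 1 percentage point between KC groups.

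Properdin and the receptors changed little in KCs. Cfp, from chromosome X, was at 3361 ± 391 CPM in Tim4+ and 3211 ± 358 CPM in Tim4- KCs against 3892 ± 406 in CRE- KCs, a log2 change of -0.23 (adjusted p = 0.147) and -0.29 (adjusted p = 0.0182, both by edgeR). C3ar1 had 384 ± 24.4 CPM in Tim4+ and 463 ± 70.6 CPM in Tim4- KCs, with log2 changes of -0.09 (95% interval -0.34 to 0.16) and 0.19 (-0.06 to 0.44). C5ar1 went from 234 ± 60.0 CPM in CRE- KCs to 199 ± 47.8 in Tim4+ KCs and 167 ± 50.1 in Tim4- KCs, with overlapping groups and a log2 change of -0.50 in the latter (95% interval -0.91 to -0.10, adjusted p = 0.0779 by edgeR).

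Markers of other liver cells moved with some of these groups. In Tim4- KCs the 7 liver endothelial markers summed to 336 to 446 CPM, below both CRE- KCs (583 to 1794) and Tim4+ KCs (1033 to 2985), and 6 of the 7 fell against CRE- KCs. In Tim4+ KCs none of the 7 passed the limits in either direction. The 8 hepatocyte markers summed to 152 to 439 CPM in Tim4+ and 88.6 to 232 CPM in Tim4- KCs, and 1 of 8 fell in Tim4- KCs and 0 in Tim4+ KCs. The monocyte markers summed to 77.4 to 303 CPM in CRE-, 94.0 to 331 in Tim4+ and 282 to 806 CPM in Tim4- KCs. Of the KC markers Clec4f, Timd4, Vsig4, Cd5l and Cd163, 2 fell in Tim4+ and 4 in Tim4- KCs, Timd4 being the sort marker. Clec4f holds the inserted Cre cassette in the CRE+ mice, so for this gene loss of Zeb2 and the insertion cannot be told apart. Whether these shifts contributed to the changes of the complement genes was not tested.

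In AMs 7 of the 9 genes tested rose in the CD11b+ fraction and 4 rose in the CD11b- fraction. C6 was too low to test, with 0 to 2 counts per library in CRE- AMs, 0 to 3 in CD11b- AMs and 0 to 21 in CD11b+ AMs. In CD11b+ AMs C1qa, C1qb, C1qc, C2, C3, Cfb and C3ar1 rose, C5ar1 fell and Cfp did not pass, where 15.3% of the 11573 genes tested were called (9.57% higher, 5.68% lower). In CD11b- AMs C1qb, C1qc, C2 and C3ar1 rose, and 6.5% of genes were called (3.98% higher, 2.51% lower). The median log2 change of the 9 genes was 1.26 in CD11b- and 3.46 in CD11b+ AMs, against 0.00 and -0.01 over all genes. Both comparisons share the CRE- AM libraries.

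C3ar1, the receptor for C3a, rose in both CRE+ AM fractions. Its level was 0.941, 1.27, 0.323, 0.866 and 1.23 CPM in CRE- AM replicates 1 to 5, then 10.9, 4.58, 13.5, 13.1 and 8.49 CPM in CD11b- AMs and 133, 76.1, 83.2, 86.1 and 93.7 CPM in CD11b+ AMs. No AM group overlapped another. C3ar1 rose 10.8-fold in CD11b- AMs (log2 3.44, SE 0.315, adjusted p = 1.22e-07) and 101-fold in CD11b+ AMs (log2 6.66, SE 0.317, adjusted p = 1.56e-12, both by edgeR). At 94.4 CPM it was still below every KC group.

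C5ar1, the receptor for C5a, went the other way. It was at 942, 1036, 990, 1134 and 1090 CPM in CRE- AM replicates, at 674, 824, 591, 867 and 762 CPM in CD11b- AMs and at 452, 558, 397, 599 and 461 CPM in CD11b+ AMs. Both CRE+ fractions lay wholly below CRE- AMs and overlapped each other. C5ar1 was 2.12-fold lower in CD11b+ AMs (log2 -1.09, SE 0.108, adjusted p = 8.08e-08) and passed only the p limit in CD11b- AMs (log2 -0.48, SE 0.107, adjusted p = 2.32e-03, both by edgeR), as 25.7% of all genes tested did including those called. Cfp was at 306 ± 26.8, 285 ± 44.3 and 343 ± 33.8 CPM in CRE-, CD11b- and CD11b+ AMs (SD, n = 5), with log2 changes of -0.10 (95% interval -0.29 to 0.08) and 0.15 (-0.04 to 0.34).

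The C1q chain genes went from traces to a moderate level in CD11b+ AMs. C1qc had 18.9 to 85.3 CPM in the 5 libraries (median 48.9) against 0.409 to 1.01 in CRE- AMs, and its log2 change was 6.22 (SE 0.497, adjusted p = 3.17e-09), with 6.76 (SE 0.733, adjusted p = 2.68e-07) for C1qa and 6.22 (SE 0.583, adjusted p = 3.31e-08, all by edgeR) for C1qb. The spread between libraries was wide, as C1qa ran at 74.7, 29.1, 18.8, 84.2 and 48.4 CPM in replicates 1 to 5, with C1qb and C1qc in the same order of libraries. The 3 chains stood near equal shares in CD11b+ AMs, with 33.5% of the C1q counts for C1qa, 32.4% for C1qb and 34.1% for C1qc. The C1qa share was higher than in CRE- KCs, where it spanned 27.5% to 28.6%, against 31.8% to 34.4% in CD11b+ AMs, a pair of ranges that did not overlap. Even so, the C1q counts of CD11b+ AMs summed to 56.8 to 248 CPM, far below the KC level.

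In CD11b- AMs the C1q chain genes were near their floor and uneven. C1qa had 2.18, 0.164, 5.48, 0.231 and 1.74 CPM, and C1qb 2.79, 1.02, 5.99, 0.289 and 1.74 CPM, so replicate 3 was highest for both. C1qb (log2 1.89, SE 0.613, adjusted p = 0.0283) and C1qc (log2 1.76, SE 0.526, adjusted p = 0.0184, both by edgeR) passed, and C1qa did not (log2 2.08, SE 0.801, adjusted p = 0.0638). Without CD11b- AM replicate 3 neither C1qb (adjusted p = 0.149) nor C1qc (adjusted p = 0.0918) passed, and limma-voom called neither (adjusted p = 0.533 and 0.481).

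**Figure D4:**
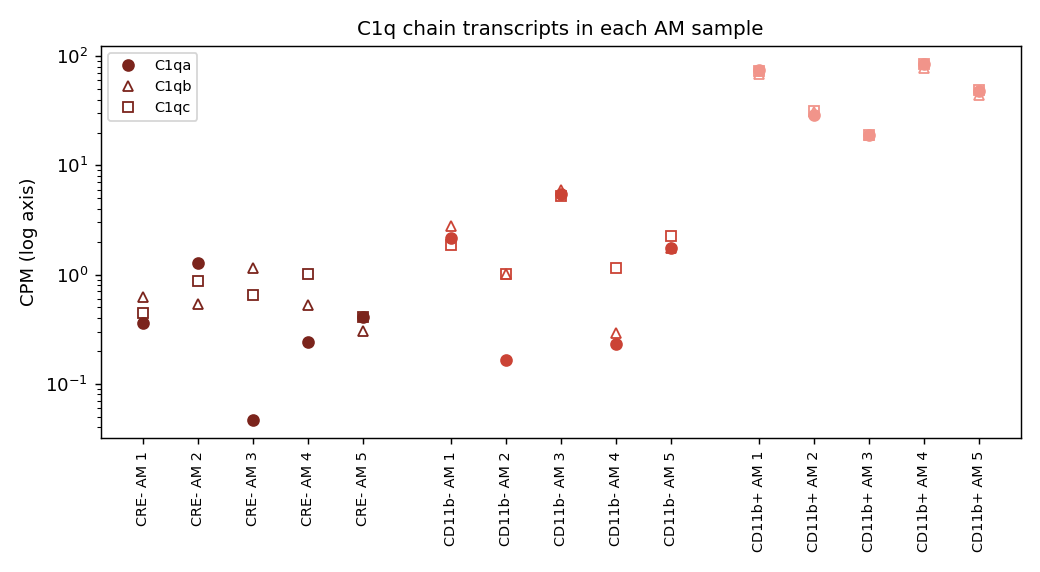
CPM on a log axis of C1qa (filled circles), C1qb (triangles) and C1qc (squares) in each of the 15 AM samples, named by group and replicate. The 3 symbols lie close together in every CD11b+ AM sample, from 18.8 to 85.3 CPM, and scatter at the low counts of the other AM samples.

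C2, C3 and Cfb all rose in CD11b+ AMs. C2 was at 1.81 ± 0.907 CPM in CRE- AMs, 4.39 ± 1.74 in CD11b- and 20.3 ± 5.16 in CD11b+ AMs (SD, n = 5), a rise of 2.39-fold (log2 1.26, SE 0.317, adjusted p = 6.04e-03) and 11.0-fold (log2 3.46, SE 0.324, adjusted p = 3.15e-08, both by edgeR), with CD11b- values that overlapped those of CRE- AMs. C3 was at 189, 150, 176, 235 and 227 CPM in CRE- AMs, at 320, 396, 284, 388 and 340 CPM in CD11b- AMs and at 1060, 934, 1129, 1151 and 899 CPM in CD11b+ AMs, with no overlap between groups. It rose 5.25-fold in CD11b+ AMs (log2 2.39, SE 0.119, adjusted p = 2.86e-12) and by 0.82 (adjusted p = 2.27e-05, both by edgeR) on the log2 scale in CD11b- AMs, which passed only the p limit. Cfb stood at 247 ± 48.6 CPM in CRE-, 252 ± 64.2 in CD11b- and 668 ± 173 in CD11b+ AMs, and rose in CD11b+ AMs (log2 1.43, SE 0.175, adjusted p = 1.42e-06 by edgeR), replicate 3 being highest at 968 CPM, while in CD11b- AMs the log2 change was 0.03 (95% interval -0.31 to 0.37). The difference of the 2 fractions themselves passed for C1qa, C1qb, C1qc, C2, C3, Cfb and C3ar1 (log2 1.39 for Cfb to 4.68 for C1qa), where 10.2% of genes were called (6.85% higher, 3.3% lower).

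Markers of other cells also rose in the CD11b+ fraction, although the study defines AMs by CD64, F4/80, SiglecF and CD11c. The 6 monocyte markers summed to 6.03 to 11.0 CPM in CRE- AMs, 11.3 to 25.4 in CD11b- and 85.8 to 282 CPM in CD11b+ AMs, where 5 of the 5 tested rose and Vcan was at 0. The 7 neutrophil markers, mostly S100a8 and S100a9, summed to 3.02 to 6.56, 630 to 2065 and 7351 to 9527 CPM, with 5 of the 5 tested rising in CD11b+ AMs. The KC markers summed to 5.43 to 23.3 CPM in CD11b+ AMs against 0.153 to 2.59 in CRE- AMs, and 2 of the 3 tested rose. Hepatocyte markers summed to at most 0.409 CPM in CD11b+ AMs, with Alb and Ttr at 0. The 5 dendritic cell markers summed to 1.06 to 3.47 CPM in CRE- AMs and 6.46 to 13.2 CPM in CD11b+ AMs, where 2 rose. Of the 6 AM markers Siglecf, Marco, Pparg, Car4, Fabp4 and Ear2, 2 rose and 3 fell in CD11b+ AMs. In CD11b- AMs 1 of these rose and 1 fell. The part of other cells in the C1q, C2 and C3ar1 rise was not tested.

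The response of 5 of the 10 genes differed between KCs and AMs. Tissue, Cre line (Clec4f-cre or Itgax-cre) and sort marker (Tim4 or CD11b) changed together here and cannot be told apart. The test asked whether the mean log2 change of both CRE+ fractions over CRE- cells was the same in KCs as in AMs, and 8.15% of the 13294 genes tested were called (3.5% higher in KCs, 4.65% lower). The change was lower in KCs by 5.32 for C2 (SE 0.375, adjusted p = 1.20e-12), 4.99 for C3ar1 (SE 0.303, adjusted p = 4.01e-14), 4.59 for C1qa (adjusted p = 5.03e-07), 4.22 for C1qb (adjusted p = 4.13e-08) and 4.16 for C1qc (adjusted p = 3.72e-09, all by edgeR). In CRE- AMs C1qa, C1qb, C1qc, C3ar1 and C2 were at 0.465, 0.631, 0.679, 0.926 and 1.81 CPM. The size of these 5 differences therefore depends on low AM counts. C2 fell in both KC fractions and rose in both AM fractions. C3 rose in both tissues and the difference of -0.40 did not pass (95% interval -0.86 to 0.06, adjusted p = 0.257). The difference did not pass either for Cfb at -0.85 (-1.52 to -0.17, adjusted p = 0.0821), Cfp at -0.28 (adjusted p = 0.106) and C5ar1 at 0.41 (-0.03 to 0.86, adjusted p = 0.217, all by edgeR). For C6, with few AM counts, the difference did not pass (-2.81, SE 1.21, adjusted p = 0.105 by edgeR), although DESeq2 called it (log2 -2.86, adjusted p = 1.80e-03).

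Other initiators and inhibitors of complement fell in Tim4- KCs. From 44 further genes of the cascade that were listed with earlier results known, 42 had a row, and 32 could be tested in KCs and 13 in AMs. In Tim4+ KCs 0 of the 32 were called by edgeR, limma-voom or DESeq2, where edgeR called 2.31% of all genes by both limits. By edgeR 3 of the 32 had an adjusted p under 0.05. The share of all genes that passed the p limit alone is not given for this comparison. In Tim4- KCs 10 fell and 0 rose, where 5.39% of all genes were called lower and 3.43% higher. Itgam and Itgax, which encode chains of the complement receptors 3 and 4, were kept out of these counts because they are the AM sort marker and the AM Cre driver, and both rose in both KC fractions (by edgeR, log2 1.09 and 1.29 for Itgam and 2.47 and 3.39 for Itgax in the Tim4+ and Tim4- fractions). Among initiators C4b, the gene of the C4 component that pairs with C2, fell from 872 to 210 CPM (log2 -2.07, SE 0.160, adjusted p = 7.57e-09), the ficolin gene Fcna from 2423 to 981 CPM (log2 -1.32) and the collectin Colec12 from 44.4 to 6.61 CPM (log2 -2.78, all by edgeR), with C1ra and Masp1 also lower. C4b has a near-identical copy, C4a, which was at only 0.322 CPM in CRE- and 0.239 CPM in Tim4- KCs. How the authors' counting treated reads that match both copies is not given in the sources used here. C4b and Colec12 are, like C6, among the genes that the paper lists as differing between monocyte-derived and embryonic KCs. Among inhibitors Cd55, which speeds the decay of the convertases, fell from 81.4 to 24.6 CPM (log2 -1.77, SE 0.376, adjusted p = 1.53e-03 by edgeR), with Serping1, Cd59a and Vtn. Of the receptors Vsig4, the C3b receptor CRIg and a KC marker, fell from 3060 to 1420 CPM (log2 -1.12). In Tim4+ KCs Masp1, Cd55, Cd59a and Vtn had means of 20.2, 131, 34.8 and 14.9 CPM, and none was called. Their CRE- KC means were lower, at 12.4, 81.4, 23.05 and 11.6 CPM. The rest of the 10 had lower means in Tim4+ than in CRE- KCs. In Tim4- KCs Cd55, Cd59a and Vtn overlapped CRE- KCs. Serping1 was low, at 5.23 CPM in CRE- and 1.59 CPM in Tim4- KCs. C1ra (log2 -1 in Tim4- KCs by edgeR) lay at the fold limit. The endothelial markers given above also moved in the Tim4- KC libraries.

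In CD11b+ AMs 4 of the 13 rose and 2 fell, where 9.57% of all genes were called higher and 5.68% lower. Those that rose were Fcna from 1.15 to 12.7 CPM (log2 3.44), C4b from 2.95 to 12.1 CPM (log2 2.02), the receptor-like gene Cd93 from 23.6 to 130 CPM (log2 2.45, SE 0.125, adjusted p = 4.51e-12) and the second C5a receptor C5ar2 from 27.0 to 56.7 CPM (log2 1.06, all by edgeR). Fcna and C4b varied widely in CD11b+ AMs, from 3.83 to 38.4 and from 4.21 to 30.7 CPM, and C4b overlapped CRE- AMs. C1ra fell (log2 -1.27), as did Itgb2, the common chain of the complement receptors 3 and 4, at -1.01 on the log2 scale. In CD11b- AMs, where 6.5% of all genes were called, Cd93 rose (log2 1.75). Itgam, which encodes CD11b itself, differed by 7.08 in CD11b+ AMs and is the sort marker. It rose in CD11b- AMs as well, from 1.92 CPM in CRE- AMs to 17.75 CPM (log2 3.19 by edgeR).

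**Figure D5:**
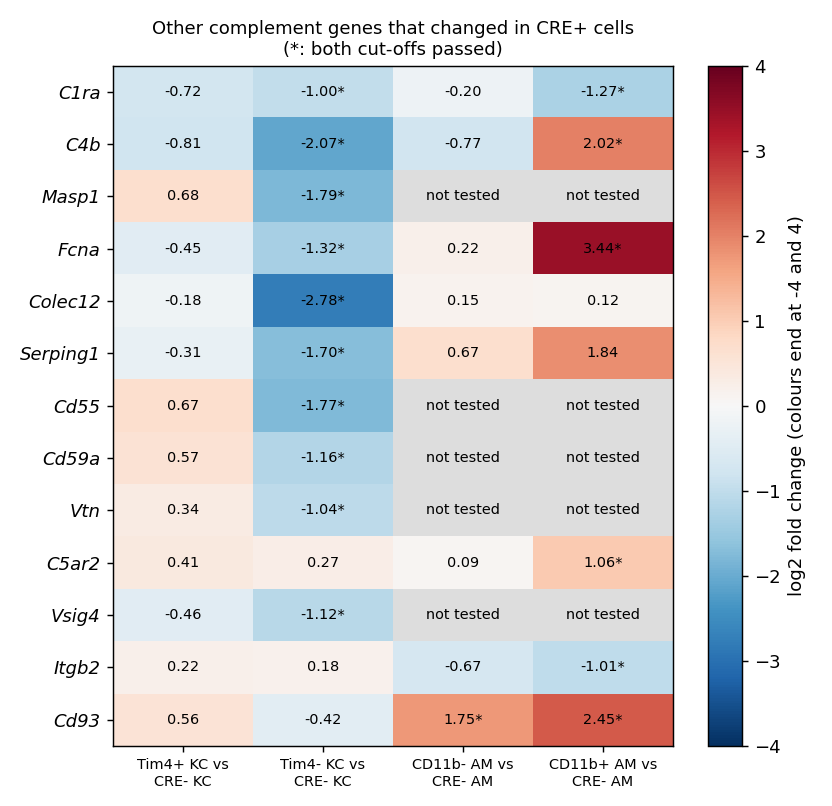
Log2 fold change, printed in each cell and coloured, of the 13 further complement genes that passed both limits (asterisk) in at least 1 of 4 comparisons of CRE+ with CRE- cells, named below the columns. Grey cells were not tested. The Tim4- KC column is negative for 10 genes with asterisks, and Fcna and C4b are positive in the CD11b+ AM column.

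Profiles like those of the 10 genes were ranked by the root mean square difference of centred log2 CPM over the 33 samples, among 4669 abundant genes. The nearest of C1qa, C1qb and C1qc were each other, at 0.439 between C1qb and C1qc and 0.783 between C1qa and C1qc, followed by Abcc3 for C1qa and C1qc and Fcna for C1qb. For C2 the nearest were Apoc1 (1.12), Ppap2b (1.22) and Ecm1 (1.24), and for C3ar1 Apoe (0.636), Oasl2 (0.828) and Oas3 (0.998). For C6 the nearest was Fcna (2.01), and for C3 Atp6v0a1 (0.387), for Cfb Grina (0.463) and for Cfp Lst1 (0.265). The values are a description over samples that share groups, depth and preparation.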

How the data were processed

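Bulk RNA-seq counts of sorted KCs and AMs were analysed. The deposited values are counts of reads per gene, 1 table per sample, which the authors made with Trimmomatic 0.35, FastQC 0.11.4, TopHat2 2.1.0 against mm10, SAMtools 0.1.18 and HTSeq-count. The tools and versions come from the submitters' processing notes, and the annotation and strand setting are not given in the sources used here. The 5 tally rows of each table (5.88% to 10.1% of its total) were left out. Samples were grouped by source name.

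The counts were tested with edgeR 4.0.16 (quasi-likelihood, TMM factors, filterByExpr, Benjamini-Hochberg over all genes tested) in R 4.3.3, in 1 fit each for the 18 KC samples, the 15 AM samples, the 11 CRE- samples and all 33 samples, the last for the difference between tissues. The SE is the log2 fold change over the root of F, and 95% intervals are 1.96 SE wide on each side. CPM uses TMM factors over all samples, and RPKM the union exon length of GENCODE M21 (GRCm38, the build of mm10), in which 95.8% of the symbols were found. Samples held 9837240 to 24332306 counts, so counting error matters for the genes with few counts and the spread between libraries for the others. The scripts were tested on simulated data. The main tests did not pair samples by replicate number, since in no comparison were all correlations of same-numbered libraries above 0.1. For Tim4- and Tim4+ KCs these correlations ran from 0.0936 to 0.203, so those fractions may be paired. A replicate block was therefore among the alternatives. In 75 pairs of replicates none agreed within sampling noise.

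The 10 genes, the other complement genes and the marker lists were chosen with earlier results of these data known. All 10 genes are described, the other complement genes are named where they passed both limits, and the 3 most similar genes (mean log2 CPM of at least 5) were ranked per gene. Some items are not reported here. Alternatives were limma-voom 3.58.1, DESeq2 1.42.0, other factors, filters and sample sets, a replicate block, a Y-linked covariate and leaving out each library. A fit of KC replicates 1 to 4 was added after seeing the data.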

Additional observations from a re-analysis of the deposited data

Results flagged for a closer look

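Single libraries stood far from the others of their group for 3 of the 60 sets of values tested, which is the number chance gives at about 1 in 20 groups. C1qb in Tim4- KC replicate 1, the shallowest library, was lowest at 4730 CPM, where the other 5 lay between 5551 and 5923 CPM. Cfb in CD11b+ AM replicate 3 was highest at 968 CPM, where the other 4 lay between 543 and 645 CPM. C6 in CD11b- AM replicate 1 was highest at 0.152 CPM, which is 3 counts.

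The change in CRE+ cells differed between KCs and AMs, by the test of the difference itself, for 5 genes. The Cre line and the sort marker differed between them as well. The log2 change in KCs minus that in AMs was -4.59 for C1qa, -4.22 for C1qb, -4.16 for C1qc, -5.32 for C2 and -4.99 for C3ar1.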

How the results depend on the processing

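The number of the 10 genes called was recomputed under each alternative. It was 3 in Tim4- against CRE- KCs and 6 with no fold limit. Requiring at least 10 counts in every sample, which removes low genes before testing, left 1 (against 4) in CD11b- AMs, 4 (against 8) in CD11b+ AMs, 3 (against 7) between the AM fractions, 4 (against 9) between CRE- KCs and AMs and 1 (against 5) for the difference between tissues. With limma-voom 2 were called in CD11b- AMs. Leaving out 1 library gave 2 to 3 in Tim4+ and in Tim4- KCs against CRE- KCs, 2 to 2 between KC fractions, 2 to 5 in CD11b- AMs (2 without CD11b- AM replicate 3), 8 to 8 in CD11b+ AMs, 7 to 7 between AM fractions, 8 to 9 between CRE- KCs and AMs and 5 to 6 between tissues. In KC replicates 1 to 4 alone, C6 in Tim4+ KCs (-0.95) and C3 in Tim4- KCs (0.88) missed the fold limit. C1qa in CD11b- AMs passed in the fit of all 33 samples (2.09) and without CD11b- AM replicate 2 (2.40) or 4 (2.35) or CRE- AM replicate 2 (2.89), and Cfb between tissues passed without Tim4+ KC replicate 3 (-1.01).

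The sign turned only for changes near 0 that were not called. C3ar1 in Tim4+ KCs ranged from -0.16 to 0.035 without single libraries (0.035 without CRE- KC replicate 4). Cfb in Tim4- KCs was -0.011 with limma-voom and -0.085 with the replicate block, and ranged from -0.19 to 0.19 without single libraries. C1qa between KC fractions was 0.0037 with DESeq2 and with RLE factors, 0.00012 with the Ddx3y term, 0.065 in replicates 1 to 4, 0.0013 with limma-voom, 0.0059 with no filter, 0.00015 with the replicate block and 0.0087 without the 10 most abundant genes, and ranged from -0.042 to 0.026 without single libraries. C1qb ranged from -0.0015 to 0.077 and C1qc from -0.022 to 0.048 there. Cfb ranged from -0.12 to 0.12 in CD11b- AMs and from -0.066 to 0.19 between CRE- groups. The block changed no count by over 1.5 times. Across comparisons, counts of the further complement genes moved by over 1.5 times, or to or from 0, in 14 results without 1 library. They held in 129. Under the other alternatives these counts moved in 12 results and held in 71. Same-numbered Tim4- and Tim4+ KC libraries correlated at 0.155 on average, against -0.031 for other numbers, and 6 of 6 correlated best with their own number. C6 in AMs and C1q in CRE- and CD11b- AMs are limited by counts.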

Other observations

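Among KC libraries, replicates 5 and 6 of each group carried counts of the Y-linked gene Ddx3y. In the fit with that term, Cfp, whose gene lies on chromosome X, was lower in these libraries by 0.25 on the log2 scale (adjusted p = 0.0390 by edgeR), and 79 of the 12500 genes tested had an adjusted p under 0.05. C3 differed by -0.38 (adjusted p = 0.338) and Cfb by -0.56 (adjusted p = 0.329). Replicates 5 and 6 were at 3473 and 3314 CPM of Cfp in CRE- KCs and at 3248 and 2674 CPM in Tim4+ KCs, below the lowest of the other libraries at 3989 and 3369 CPM. In Tim4- KCs they were at 2970 and 2807 CPM and overlapped the other libraries, whose lowest was 2942 CPM. Sex and any other difference in the preparation of these libraries cannot be told apart.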
